A study of Mus musculus with 6 samples.

Results

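Endothelium of the mouse lung, the lining of its blood vessels, had been sorted by fluorescence-activated cell sorting, and the RNA obtained included transcripts of the lung's epithelium. The genes described here are 35 markers of that epithelium: 10 of alveolar type 2 cells (AT2), 9 of alveolar type 1 cells (AT1), 12 of the airways and 4 keratin and adhesion genes that these epithelia share. They were taken as a list by their known cell type, and all 35 have a row among the 24520 genes of the count and TPM tables. The libraries carry the labels wild type (WT) and knockout (KO) for Dnmt3a, a DNA methyltransferase, with 3 libraries under each label. Both come from lung endothelial cells of mice, and the RNA was prepared with a PicoPure kit, made for few cells, and amplified with a SMARTer low-input kit before paired-end sequencing. The sources used here do not state the allele, any Cre driver, the sorting gate, the age, or whether each library is a separate animal. The p-values below therefore measure only the spread between these libraries, which may be technical.

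Gas exchange takes place in alveoli, whose wall is shared by epithelium and capillary endothelium. AT2 cells make surfactant, a film of lipids and of the surfactant proteins that keeps the alveoli open, and AT1 cells are the thin cells over which gas crosses. The airways are lined by club cells, which secrete the protein encoded by Scgb1a1, by ciliated cells, whose cilia move mucus, and by mucous and other secretory cells that are commonest in the larger airways. Epithelial genes are not part of the known program of endothelial cells, but some genes used as epithelial markers, such as Hopx and Clic5, are also expressed in other cells.

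Libraries held between 28136194 and 39999172 counts. The sum of 14 endothelial markers, among them Pecam1 and Cdh5, ranged from 22138 to 27916 CPM (counts scaled to a common library size with TMM factors), a 1.26-fold range, so the labelled cell type was present at a similar level in every library. Dnmt3a itself was higher in the KO-labelled libraries (165 ± 6.45 CPM, SD, n = 3) than in the WT-labelled ones (35.3 ± 3.10, n = 3), a log2 difference of 2.22 (SE 0.11; adjusted p = 0.00157 in edgeR's quasi-likelihood test). These are counts per gene and the allele is not stated, so whether they go against the label could not be tested. Groups are therefore called here the KO-labelled libraries and the WT-labelled libraries. Libraries are named by label and replicate number, as in WT 1. In WT 1 and KO 1 Xist stood at 545 and 714 CPM and the sum of 4 Y-linked genes at 2.40 and 2.50 CPM, while the other 4 libraries had at most 1.98 CPM of Xist and at least 283 CPM of the Y-linked genes. WT 1 and KO 1 were also the libraries with the most Sftpc under their label, and the part of sex in the results was not tested.

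The members together took 1.20% of all counts in WT 1 (exact Clopper-Pearson 95% interval 1.19% to 1.20%), 0.107% in WT 2 (0.105% to 0.108%), 0.548% in WT 3 (0.546% to 0.551%), 0.510% in KO 1 (0.507% to 0.512%), 0.403% in KO 2 (0.401% to 0.405%) and 0.194% in KO 3 (0.192% to 0.196%). These intervals cover counting error only. Both the highest and the lowest library carried the label WT, and the 3 KO-labelled libraries lay between them. In a bulk library, fewer epithelial cells and less RNA per cell cannot be told apart.

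**Figure D1:**
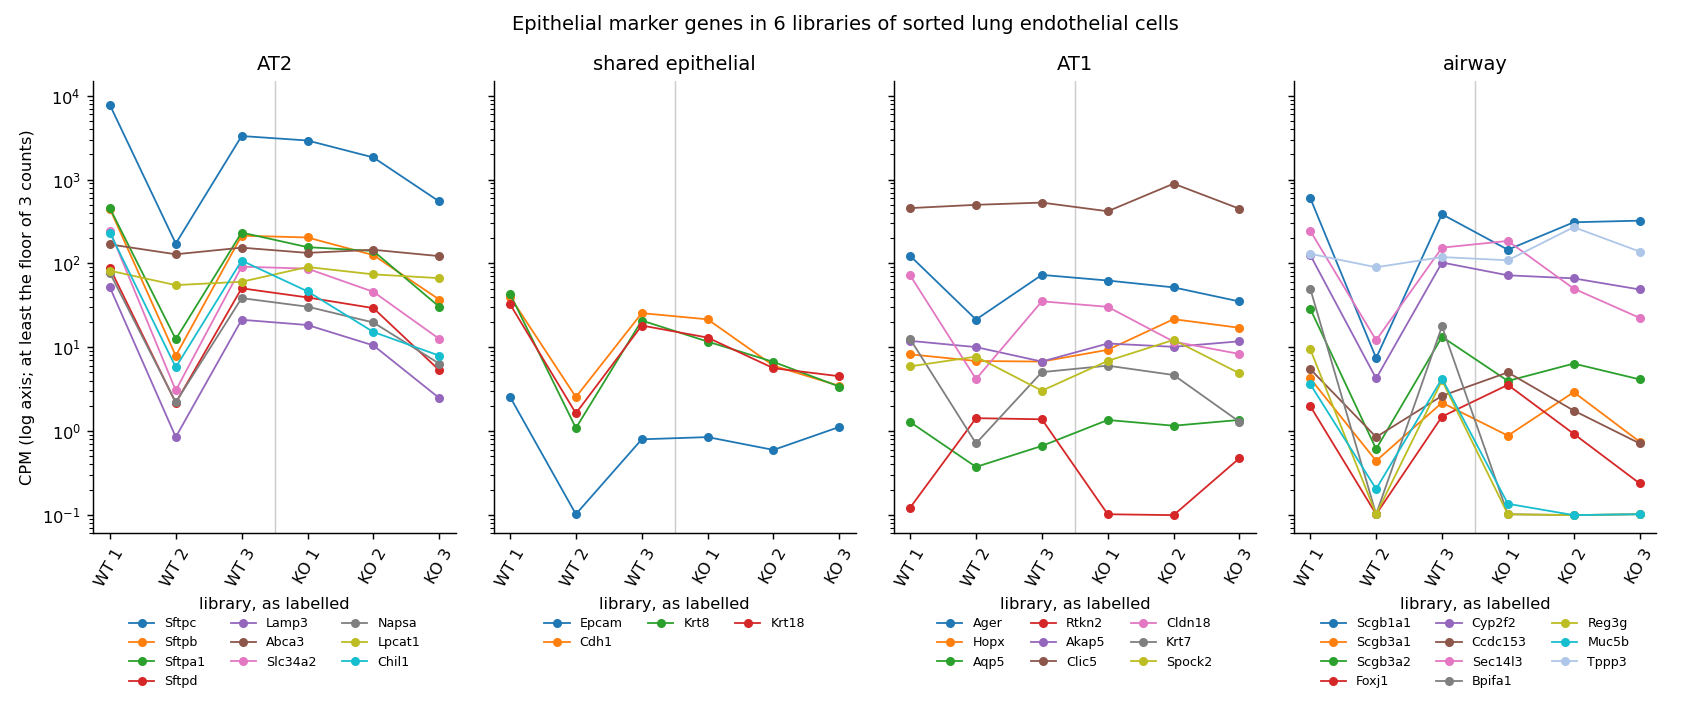
CPM of every member with at least 10 counts in some library (log axis, levels under 3 counts drawn at 3 counts) in the 6 libraries, with lines joining the values of a gene; lines carry no order between libraries. Most AT2 genes, the shared epithelial genes and most airway genes were lowest in WT 2 and highest in WT 1, while Abca3, Lpcat1, Clic5 and Tppp3 stayed within a narrow range.

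Sftpc, which encodes surfactant protein C and lies on chromosome 14 at 70520949 to 70524081 on the minus strand (mm10), was the most abundant member. It stood at 7762 CPM in WT 1, 173 in WT 2, 3310 in WT 3, 2927 in KO 1, 1837 in KO 2 and 548 in KO 3, a 45.0-fold range. By TPM, a level per transcript length, it was the most abundant gene of the whole table in WT 1, WT 3 and KO 1, the 4th in KO 2, the 70th in KO 3 and the 299th in WT 2. The groups overlap, since WT 2 lies below every KO-labelled library and WT 1 and WT 3 above them.

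The other surfactant genes followed the same order. Sftpb, whose product spreads the surfactant film, stood at 447, 7.89 and 214 CPM in WT 1, WT 2 and WT 3 and at 204, 125 and 37.0 CPM in KO 1, KO 2 and KO 3. Sftpa1, which encodes a collectin of innate defence, stood at 455, 12.5 and 233 CPM in the WT-labelled libraries and at 156, 141 and 30.4 CPM in the KO-labelled ones. Sftpd, a second collectin, stood at 88.0, 2.17 and 50.4 CPM and at 39.2, 29.3 and 5.32 CPM. All 3 genes were highest in WT 1 and lowest in WT 2, and their groups overlap.

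The promoters of Sftpb and Sftpa1 are shown because these genes moved together. They come from RefSeq on GRCm38.p6, the build called mm10 in the deposited notes, as the 250 bases before the start site. The table matched 25 of the 35 members. Capitals mark each CTCAAG, read on both strands (its reverse complement is CTTGAG) and overlapping no other motif searched, the core of sites bound by NKX2-1, a transcription factor of lung epithelium.
Sftpb (chr6:72304360-72304609, plus strand): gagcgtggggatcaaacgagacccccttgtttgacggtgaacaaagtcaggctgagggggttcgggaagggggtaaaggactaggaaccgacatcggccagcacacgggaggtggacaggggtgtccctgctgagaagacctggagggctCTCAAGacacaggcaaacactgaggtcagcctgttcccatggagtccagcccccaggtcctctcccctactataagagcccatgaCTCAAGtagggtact
Sftpa1 (chr14:41131538-41131787, plus strand): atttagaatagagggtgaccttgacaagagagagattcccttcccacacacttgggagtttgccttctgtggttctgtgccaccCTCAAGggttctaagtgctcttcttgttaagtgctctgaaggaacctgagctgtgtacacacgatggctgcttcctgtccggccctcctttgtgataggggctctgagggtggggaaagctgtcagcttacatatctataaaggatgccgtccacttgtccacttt

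In Sftpb the matches begin 100 and 15 bases before the start site, and in Sftpa1 the match begins 166 bases before it. The motif was in 8 of the 27 promoters of members and in 13.3% of the 32851 promoters of the table. The other members with a match were Bpifa1, Ccdc153, Hopx, Reg3g, Scgb3a1 and Spock2. None of them had the library order of Sftpc, and their r with it ran from -0.21 (Spock2) to 0.89 (Ccdc153). The promoters of Slc34a2, Lamp3, Chil1 and Ager, whose levels also followed Sftpc, held no match in this window. Nkx2-1 itself had between 3.12 and 6.85 CPM, a 2.20-fold range. It and the motif were chosen after the values were seen.

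For 6 of the other AT2 genes the proportion to Sftpc stayed within a narrow range across the libraries. Sftpb, Sftpa1, Sftpd, Lamp3, which encodes a lysosomal membrane protein of surfactant-storing bodies, Slc34a2, a phosphate transporter, and Napsa, a protease that processes surfactant proteins, ranged 34.9-fold to 80.0-fold in CPM. Their TPM as a share of Sftpc TPM varied only 1.27-fold to 1.79-fold. Napsa, for example, was 0.447% of Sftpc in WT 1, 0.567% in WT 2, 0.524% in WT 3, 0.469% in KO 1, 0.483% in KO 2 and 0.522% in KO 3. Across the 6 libraries Pearson's r of log2(CPM + 0.5) with Sftpc was 0.992 to 0.9997 for these 6 genes. Spearman's rho was 1 for each, as a description over libraries that share a preparation. These 6 were grouped by their narrow spread of shares. The share varied 4.12-fold for Chil1, 30.4-fold for Lpcat1 and 34.3-fold for Abca3, the remaining AT2 members. For Krt8, a shared epithelial gene, it varied 1.73-fold.

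Chil1, a secreted chitinase-like protein, kept the order but not the proportion. It stood at 231, 5.76 and 108 CPM in WT 1, WT 2 and WT 3 and at 46.4, 15.2 and 7.92 CPM in KO 1, KO 2 and KO 3. As a share of Sftpc TPM it was 1.13%, 1.27% and 1.24% in the WT-labelled libraries and 0.603%, 0.307% and 0.557% in the KO-labelled ones, so the shares do not overlap although the levels do. Of the 34 other members, 2 (Chil1 and Muc5b) had a share that was lower without overlap in the KO-labelled libraries and 1 (Sftpb, 1.93% to 2.75% against 2.88% to 2.96%) a higher one. Over the 14634 tested genes with a symbol other than Sftpc, 0.185% were lower and 0.465% higher in this sense. Tested members are included, but Muc5b was not among the tested genes. Sftpc itself overlaps between the labels, so the share of a gene with an even level overlaps as well. These percentages are therefore no yardstick for genes that followed Sftpc. The smallest two-sided p that an exact permutation test of 3 against 3 allows is 0.1, and these ratios were singled out after their values were seen, so they stand as a description.

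The other AT2 markers varied far less. Abca3, a lipid transporter, ranged from 122 to 169 CPM over the 6 libraries, and Lpcat1, which makes surfactant lipid, stood at 81.8, 55.1 and 60.4 CPM in WT 1, WT 2 and WT 3 and at 90.5, 74.0 and 66.7 CPM in KO 1, KO 2 and KO 3. Their ranges were 1.38-fold and 1.64-fold, against 45.0-fold for Sftpc. Within its small range Abca3 rose and fell with Sftpc (r 0.82, rho 0.89, and r 0.89 without WT 2). For Lpcat1 r was 0.69 (rho 0.54) and 0.39 without WT 2. In WT 2, where Sftpc was at its lowest, Abca3 TPM was 6.67% of Sftpc TPM, and in WT 1 it was 0.194%.

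Of the shared epithelial genes, 3 of 4 had the library order of Sftpc. Krt8, a keratin of simple epithelia, stood at 43.3, 1.08 and 20.8 CPM in WT 1, WT 2 and WT 3 and at 11.7, 6.67 and 3.39 CPM in KO 1, KO 2 and KO 3. Krt18, its partner in the filament, stood at 32.6, 1.63 and 18.1 CPM and at 13.0, 5.61 and 4.50 CPM. Their r with Sftpc was 0.978 and 0.964, and that of Cdh1, the epithelial cadherin, was 0.934. Epcam, an epithelial adhesion molecule, had 84, 1 and 30 counts in WT 1, WT 2 and WT 3 and 25, 18 and 33 in KO 1, KO 2 and KO 3. It was highest of its label in KO 3, where Sftpc was lowest, and its r with Sftpc was 0.79 (rho 0.60) and 0.48 without WT 2.

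The AT1 list split in its behaviour. Ager, the receptor for advanced glycation end products and the best known AT1 marker, lies on chromosome 17 at 34597862 to 34600936 on the plus strand. It stood at 123, 21.4 and 72.9 CPM in WT 1, WT 2 and WT 3 and at 62.4, 51.7 and 35.1 CPM in KO 1, KO 2 and KO 3. It had the library order of Sftpc but a 5.76-fold range. Over the 6 libraries r of log2 CPM between Ager and Sftpc was 0.987 and rho was 1, each with p = 0.00278 by a two-sided exact permutation test, the smallest this test can give, and p = 0.00833 after Benjamini-Hochberg adjustment over the 3 pairs of Sftpc, Ager and Scgb1a1. Without WT 2 and KO 3, the 2 libraries farthest from the median of Sftpc, r was 0.993. Leaving out 1 library kept r at 0.976 to 0.995 with an exact permutation p of 0.0167, the smallest that 5 libraries can give; the adjusted p was 0.0333 without KO 1 and 0.05, no longer past the threshold, without any other library.

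Cldn18, a tight-junction protein that AT2 cells express too, stood at 72.0, 4.16 and 35.3 CPM in the WT-labelled libraries and at 30.3, 11.7 and 8.30 CPM in the KO-labelled ones. Krt7, a keratin, stood at 12.5, 0.711 and 5.04 CPM and at 6.02, 4.66 and 1.29 CPM. Both followed Sftpc, with r of 0.962 and 0.984.

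The other 6 AT1 markers did not. Clic5, a chloride channel-related protein, was the most abundant of the list and made up 66.0% to 90.5% of its summed CPM. It stood at 457, 500 and 531 CPM in WT 1, WT 2 and WT 3 and at 419, 894 and 449 CPM in KO 1, KO 2 and KO 3, highest in KO 2 and with r of 0.0011 with Sftpc. Hopx, a homeodomain protein without DNA binding, stood at 8.22, 6.84 and 6.74 CPM and at 9.30, 21.6 and 17.0 CPM. Every KO-labelled library was above every WT-labelled library. Akap5 and Spock2 ranged 1.77-fold and 4.04-fold, Aqp5, a water channel, had at most 42 counts and Rtkn2 at most 52 counts in any library, and r with Sftpc lay between -0.52 and 0.56 for these 6 genes.

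**Figure D2:**
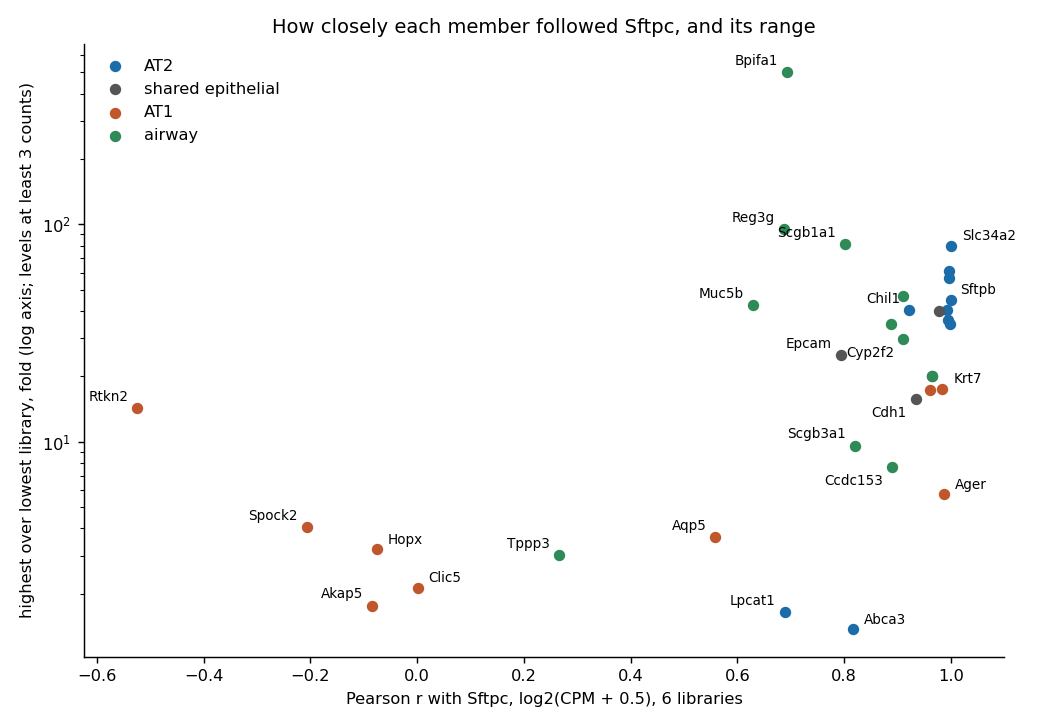
Each member with at least 10 counts in some library, by its Pearson r with Sftpc over the 6 libraries (horizontal) and its highest over lowest library (vertical, log axis, levels at least 3 counts), coloured by list. Most AT2 genes and Krt8, Krt18 and Cdh1 gather at r near 1 with wide ranges, Abca3, Lpcat1 and Epcam lie apart from them, Ager sits at r of 0.987 with a 5.76-fold range, and Clic5, Hopx, Akap5 and Spock2 lie near r of 0.

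Airway markers differed among themselves. Scgb1a1, the club cell secretory protein, lies on chromosome 19 at 9083636 to 9087958 on the minus strand. It stood at 601, 7.42 and 386 CPM in WT 1, WT 2 and WT 3 and at 146, 310 and 323 CPM in KO 1, KO 2 and KO 3. WT 2 was again the lowest, but among the KO-labelled libraries the order was the reverse of that of Sftpc. The r with Sftpc was 0.80 (two-sided exact permutation p = 0.0917, adjusted p = 0.0917) and rho 0.77 (exact p = 0.103), and without WT 2 and KO 3 r was 0.61. With Ager r was 0.80 (exact permutation p = 0.0694, adjusted p = 0.0917) and rho 0.77, and without WT 1 and WT 2 r was -0.16, so that relation rests on those 2 libraries. Without KO 1 both pairs with Scgb1a1 passed the threshold (r 0.84 with Sftpc and 0.81 with Ager, exact permutation adjusted p = 0.0333 each), and without WT 2 r was 0.32 and 0.48.

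Cyp2f2, a cytochrome of club cells, stood at 126, 4.23 and 102 CPM in the WT-labelled libraries and at 72.1, 66.2 and 48.8 CPM in the KO-labelled ones. Scgb3a2, another secretoglobin, stood at 28.7, 0.609 and 13.3 CPM and at 3.96, 6.37 and 4.13 CPM. Sec14l3, a lipid-binding protein of ciliated cells, stood at 245, 12.1 and 154 CPM and at 185, 50.0 and 22.4 CPM. Among the KO-labelled libraries, Sec14l3 and Foxj1, the master regulator of motile cilia (105, 28 and 7 counts in KO 1, KO 2 and KO 3), were highest in KO 1, where Scgb1a1 was lowest.

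Bpifa1, a secreted protein of the nose and large airways, had 1638 counts in WT 1, 668 in WT 3 and 0 in the other 4 libraries, where a count of 0 allows up to 0.102 CPM. Reg3g, an antibacterial lectin, had 310 counts in WT 1, 151 in WT 3, 3 in KO 3 and 0 in the others. Muc5b, a gel-forming mucin, had 119, 6 and 159 counts in WT 1, WT 2 and WT 3 and 4, 2 and 3 in KO 1, KO 2 and KO 3. These secretory genes were thus seen mainly in WT 1 and WT 3, and WT 2 was close to the KO-labelled libraries.

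Tppp3, a tubulin-binding protein, stood at 130, 89.9 and 119 CPM in the WT-labelled libraries and at 109, 271 and 138 CPM in the KO-labelled ones, highest in KO 2 as Clic5 was. Scgb3a1 and Ccdc153, a secretory and a ciliated cell gene, ranged 9.61-fold and 7.70-fold. Krt5, a keratin of basal cells, had 1 count in all, in KO 1.

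The airway genes were then summed by cell type, over 24 members and other airway genes grouped after their values were seen. Relative to WT 1, the sum of 8 club genes was 1.58% in WT 2, 65.2% in WT 3, 30.2% in KO 1, 50.1% in KO 2 and 46.7% in KO 3. The sum of 11 ciliated genes was 5.43%, 61.4%, 76.0%, 20.4% and 8.96% in the same libraries. The sum of 5 mucosal secretory genes was 0.303%, 41.4%, 0.110%, 0.0805% and 0.303%. Single genes carried these sums: Sec14l3 was 77.3% to 87.0% of the ciliated sum and Scgb1a1 54.5% to 80.6% of the club sum. Gene by gene, 11 of 11 genes put in the ciliated sum were highest of the KO-labelled libraries in KO 1. The airway members Tppp3, Scgb3a1 and Krt5 and some of the other airway genes were not put in any of these sums. Tppp3 was lowest of the KO-labelled libraries in KO 1 (109, 271 and 138 CPM in KO 1, KO 2 and KO 3). With Tppp3 counted as a ciliated gene, not all would be highest in KO 1. Scgb3a1 stood at 0.879, 2.91 and 0.745 CPM in KO 1, KO 2 and KO 3. Of the 8 club genes 3 were lowest in KO 1 and 4 highest. Among the 4 were Cyp2f2 and Aldh1a1, a retinal dehydrogenase (10.6, 10.2 and 3.22 CPM in KO 1, KO 2 and KO 3). Without Scgb1a1 the club sum was 44.2%, 46.8% and 30.1% of WT 1 in KO 1, KO 2 and KO 3.

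**Figure D3:**
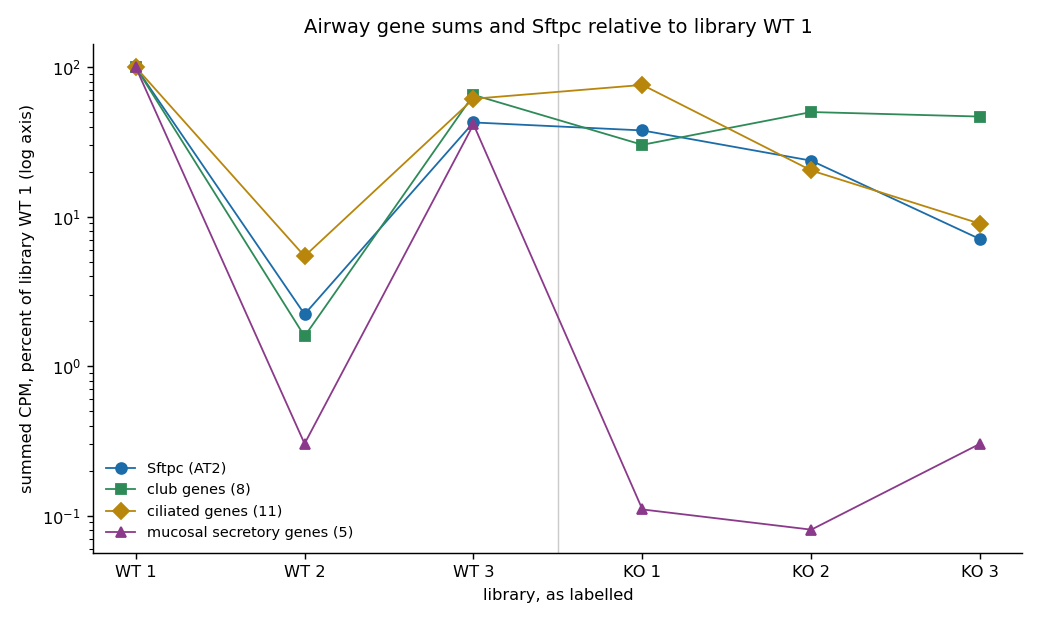
Summed CPM of 8 club, 11 ciliated and 5 mucosal secretory genes and of Sftpc in each library, as a percentage of library WT 1 (log axis), with lines joining the values of a sum. The ciliated sum lay near Sftpc in KO 2 and KO 3, the club sum stayed at 30.2% to 50.1% in the KO-labelled libraries, and the mucosal secretory sum was at most 0.303% in WT 2 and the KO-labelled libraries.

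Summed by list, AT2 ranged from 390 CPM in WT 2 to 9607 CPM in WT 1, the airway list from 116 CPM in WT 2 to 1205 CPM in WT 1, and AT1 from 529 CPM in KO 3 to 1007 CPM in KO 2. Pearson's r of the log2 sums was 0.88 between AT2 and airway (rho 0.83), 0.38 between AT2 and AT1 (rho 0.43) and 0.44 between AT1 and airway (rho 0.60). The AT1 sum is mostly Clic5. Without the most abundant gene of each list, r was 0.98 between AT2 and AT1, 0.94 between AT2 and airway and 0.96 between AT1 and airway. Of the AT1 genes then left, Ager was the most abundant in every library, and it followed Sftpc as Cldn18 and Krt7 did. Hopx, Akap5, Spock2, Aqp5 and Rtkn2 did not, so the 0.98 does not describe the whole AT1 list. Without WT 2 and KO 3, r between the full AT2 and AT1 sums was -0.41.

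Of the 34 members other than Sftpc, 13 had exactly its order of the 6 libraries and 16 had r above 0.9. Over the 14604 tested genes that are not members, 0.431% (63) had that order and 1.68% (246) had r above 0.9. The 10 genes most like Sftpc among 10058 compared were Wfdc2, Alcam, Scd1, Cxcl15, Cbr2, Lyz2, Cldn3, Lyz1, Hc and Sord, with r from 0.990 to 0.999. Cxcl15, Cbr2, Lyz2, Lyz1, Hc and Scd1 are on the list of other AT2 genes, and Wfdc2 and Cldn3 on that of other shared epithelial genes. Lyz2, a lysozyme also made by macrophages, stood at 423, 12.5 and 174 CPM in WT 1, WT 2 and WT 3 and at 182, 122 and 25.4 CPM in KO 1, KO 2 and KO 3. The 5 genes most like Scgb1a1 were Alg10b, Fbf1, Hp, Plpp6 and Tulp4, with r from 0.959 to 0.982; of these Alg10b ranged only from 10.3 to 12.1 CPM.

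By label, edgeR called no member and DESeq2 called 2, Hopx and Muc5b. edgeR's quasi-likelihood test took 31 of the 35 members. Its filter left out Krt5 and also Bpifa1, Reg3g and Muc5b, which reached its minimum level in too few libraries. Of the 31 tested, 0 passed an adjusted p of 0.05 in that test, with 1, Hopx, at an unadjusted p under 0.05. Over all 14667 tested genes 5 were called, which is 0.0341%, and 1855 had an unadjusted p under 0.05 in that test. The log2 fold change was positive for 8 members and negative for 23, with a median of -0.61, against 0.0086 over all tested genes. For Sftpc, the mean was 3748 ± 3814 CPM in the WT-labelled libraries and 1771 ± 1191 in the KO-labelled ones (SD, n = 3 each). Its log2 fold change was -1.08 with an SE of 1.10 (adjusted p = 0.701 in edgeR). Without WT 1, the library with most epithelial RNA, the median of the members was 0.07 and the sign of 11 of the 31 turned.

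By list, the median log2 fold change was -1.07 for AT2 (9 of 10 negative), -1.16 for the shared epithelial genes (4 of 4), 0.20 for AT1 (4 of 9 negative) and -0.33 for the 8 tested airway genes (6 negative). Without WT 1 the AT2 median was -0.087 and the airway median 0.31, with 7 of 8 positive. The mean log2 summed CPM of the KO-labelled minus that of the WT-labelled libraries was -0.36 for AT2, -0.63 for the shared epithelial genes, 0.07 for AT1 and 0.28 for airway (0.55 on TPM), so the airway sum and the airway median differ in sign. Chil1 had a log2 fold change of -2.31 with an SE of 1.13 (adjusted p = 0.434 in edgeR).

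Hopx was the one tested member whose groups did not overlap, being higher in the KO-labelled libraries, where 10.9% of all tested genes were higher without overlap and 9.42% lower. Its mean was 7.26 ± 0.826 CPM in the WT-labelled libraries and 16.0 ± 6.22 in the KO-labelled ones (n = 3 each), a log2 fold change of 1.14 with an SE of 0.31 (adjusted p = 0.293 in edgeR). DESeq2 called Hopx (adjusted p = 0.0357) and Muc5b (log2 fold change -4.74, adjusted p = 0.00149), 2 of the 34 members it tested, and 2.68% of all genes. Muc5b was lower without overlap, but WT 2 had 6 counts and KO 1 had 4.

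**Figure D4:**
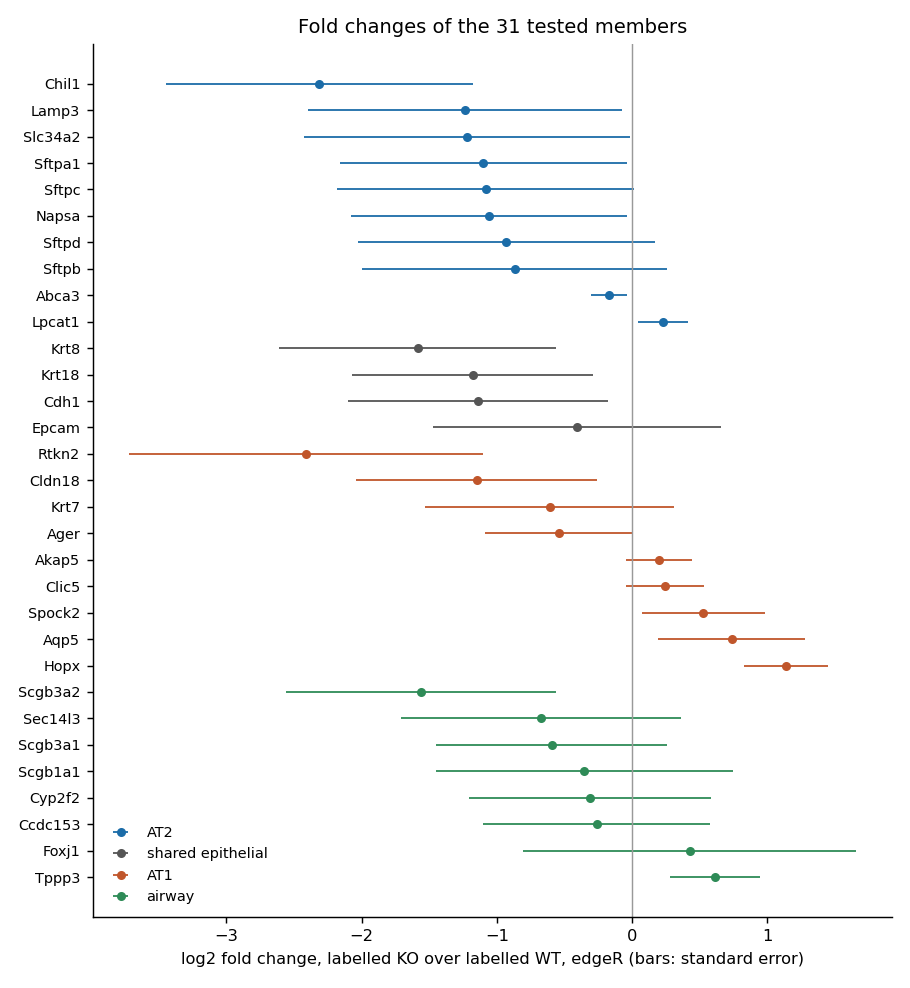
The log2 fold change of each of the 31 tested members, KO-labelled over WT-labelled libraries, from edgeR's quasi-likelihood fit, coloured by list. Bars are standard errors worked out from the fold change and the F statistic of the test. Of these, 23 lie below 0 and 8 above, and Hopx (1.14, SE 0.31) is the highest.

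A wider list held 78 other genes of the same cell types. In edgeR's test 0 of 16 tested AT2 genes, 1 of 14 AT1 genes, 0 of 18 airway genes and 0 of 18 shared epithelial genes were called. The called gene was Sema3b, a secreted semaphorin, which was lower in the KO-labelled libraries (92.7, 107 and 124 CPM against 28.3, 19.9 and 26.8 CPM, log2 fold change -2.11, edgeR adjusted p = 0.016) but did not follow Sftpc (r 0.03). Its call was lost on leaving out any one of WT 1, WT 2, WT 3, KO 1 and KO 3 (adjusted p = 0.0581 to 0.156 in edgeR) and kept without KO 2 (0.0423). Cbr2, a carbonyl reductase, stood at 342, 9.28 and 179 CPM in WT 1, WT 2 and WT 3 and at 167, 107 and 42.2 CPM in KO 1, KO 2 and KO 3. Bpifb1, a relative of Bpifa1, had 1909, 5 and 930 counts in WT 1, WT 2 and WT 3 and 0, 1 and 5 in KO 1, KO 2 and KO 3. Emp2 and Elovl1, abundant genes of the AT1 and AT2 lists, ranged 2.03-fold and 1.95-fold and did not follow Sftpc (r 0.13 and 0.11).

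Markers of other cells differed in their relation to Sftpc. The summed CPM of 6 mesothelial markers was 35.3, 3.05 and 18.7 in WT 1, WT 2 and WT 3 and 10.1, 4.29 and 2.40 in KO 1, KO 2 and KO 3 (r of the log2 sum with Sftpc 0.87, rho 0.94). Krt19, a keratin of epithelium too, made up 67.8% to 97.2% of that sum, and the other 5 markers summed to 0.0677 to 1.98 CPM (r 0.44, rho 0.71). The sum of 10 pericyte and smooth muscle markers was 348, 119 and 493 CPM and 601, 536 and 137 CPM (r 0.81, rho 0.49). Macrophage markers, 4 of 13 of them at 0 in every library, summed to 19.5 to 28.2 CPM in the WT-labelled libraries and 36.2 to 42.8 in the KO-labelled ones, and 10 fibroblast markers to 170 to 244 and 327 to 475 CPM. Erythroid and platelet markers were highest in WT 2 (3703 CPM, against 664 to 2475 in the others, r -0.48). T and NK cell markers summed to only 2.07 to 5.28 CPM (r -0.53). Neutrophil markers varied 1.45-fold and showed little relation to Sftpc (r -0.21). B cell markers summed to 2384 CPM in WT 3 and 29.3 to 308 CPM in the other libraries (r 0.53). That list as written included the antigen presentation genes Cd74 and H2-Ab1, so the sum may not be RNA of B cells alone. The part of these cells in the results was not tested.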

How the data were processed

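The authors deposited 2 gene tables: estimated counts per gene, in whole numbers without normalization, and TPM, whose columns sum to 875864 to 885609. Per the submitters' processing notes, kallisto was used with mm10; the sources used here do not state its version, the annotation, the step from transcripts to genes or strand use. Symbols and positions are from GENCODE M21 (24298 of 24520 identifiers matched). Rounding the estimated counts changed 0 values. Counts were tested with edgeR 4.0.16 (R 4.3.3; TMM factors, filterByExpr, quasi-likelihood test, Benjamini-Hochberg adjustment at 0.05, all 6 libraries, no covariate), with DESeq2 1.42.0 and limma 3.58.1 on log2(TPM + 1) as alternatives; the code was tested on simulated data. The SE of a log2 fold change is its absolute value divided by the square root of edgeR's F statistic. Correlations used scipy 1.17.1 with exact permutation. A count of 0 allows 3 counts, 0.0796 to 0.102 CPM.

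Per-library values were printed for the members with the highest mean TPM of each list (6 AT2, 2 shared epithelial, 5 AT1, 6 airway), for any called and for any without overlap; members under 10 counts everywhere were named as such. From the wider lists the 3 with the highest mean TPM and those called could be named. Likeness used log2(CPM + 0.5) over genes with a mean of at least 5 CPM, without clone or predicted names. The members and lists were chosen with earlier results of these data known. Other genes named with values, the airway cell types, the ratios to Sftpc and the clone-name pattern were chosen after the values were seen.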

Additional observations from a re-analysis of the deposited data

How the results depend on the processing

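The count of members called by edgeR was 0 under every other normalization, filter, left-out library, replicate block and TPM fit run, and 2 with DESeq2. The count over all genes, 5, was 407 with DESeq2, 3 with limma on log2(TPM + 1) without a filter and 0 with the replicate block; same-numbered libraries had correlated deviations of 0.28, -0.048 and -0.18, so the numbers were not taken as pairs. Leaving out 1 library gave 1 to 4 calls over all genes and 0 to 0 among the members. Without WT 2, 17 of 34 tested members had an unadjusted p under 0.05 in edgeR's test, as did 1543 of all 15152 tested genes. The members' median log2 fold change was then -1.33. On log2(TPM + 1) the members' median was -0.19; the cause was not tested. Sema3b was not called with the replicate block (adjusted p = 0.165). 2 settings were chosen after seeing the data. Without WT replicates 1 and 2, the extremes of the members' level, the members' median log2 fold change was -0.81. That fit assumes that the lone WT library varies like the others. Without both libraries numbered 1, 0 of 14643 genes and 0 of 31 members were called (median -0.41).

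For the correlations of sums a value counted as moved past the SD of the values that leave out 1 library, a band chosen after seeing the data. AT2 with AT1 (0.38) was 0.81 on TPM, 0.90 for means of centred log2 levels, 0.98 without the most abundant genes, -0.41 without the 2 farthest libraries and 0.23 to 0.76 leaving out 1 library. AT2 with airway (0.88) was 0.80, 0.95, 0.94, 0.78 and 0.78 to 0.97. AT1 with airway (0.44) was 0.73, 0.80, 0.96, 0.77 and 0.40 to 0.64, with rho 0.60. Leaving out 1 library, r was 0.98 to 0.99 for Sftpc with Ager, 0.32 to 0.96 for Sftpc with Scgb1a1 and 0.48 to 0.93 for Ager with Scgb1a1 (-0.16 without WT 1 and WT 2). The exact permutation adjusted p of Sftpc with Ager was then 0.0333 without KO 1 and 0.05, which does not pass, without any other library; both pairs with Scgb1a1 passed without KO 1 only. With the replicate block the airway median log2 fold change was 0.017. The difference of the mean log2 sums, libraries labelled KO minus WT, ranged leaving out 1 library from -1.70 to 0.61 for AT2, -1.98 to 0.26 for the shared epithelial genes, -0.24 to 0.23 for AT1 and -0.75 to 0.94 for airway.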
